A study of Mus musculus with 20 samples.

Results

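The RUNX genes Runx1, Runx2 and Runx3 and the gene of their shared partner, Cbfb, were followed in cultured mouse renal myofibroblasts. These 4 genes were taken by name from a count table of 51826 genes, and all 4 passed the filter that left 20407 genes to be tested. RUNX proteins bind DNA through the Runt domain, and CBFβ, which does not bind DNA itself, joins that domain, strengthens the binding and protects the RUNX protein from breakdown. Runx1 is best known from the formation of blood stem cells, Runx2 from osteoblast differentiation and Runx3 from T cells and other leukocytes. RUNX proteins also work with SMAD proteins downstream of TGFβ, the main profibrotic cytokine of the kidney, and several HECT ubiquitin ligases with WW domains bind their PY motif.

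The cells grew out of minced kidneys of C57BL/6J mice and were harvested at the second passage. The mice were either WT or carried a knockout of the ubiquitin ligase WWP2 (WWP2-/-). In each genotype, 5 libraries came from untreated cells and 5 from cells treated with TGFβ1, 20 in all. The study describes treatment of such cells with TGFβ1 over several days and, in general, data points from separate mice, but the labels give no dose, duration, age, sex or animal for these libraries, so that P values measure the spread between these libraries, which may be technical in part. The study reports loss of the full-length and N isoforms of WWP2 in WWP2-/- kidneys and cultured cells, and describes these cells as without WWP2 expression. Wwp2 RNA was nevertheless counted in every WWP2-/- library, at the lower levels given below. The isoforms behind these counts were not told apart, so a complete loss of WWP2 was not tested. The knockout was not specific to myofibroblasts, and the outgrowth was not sorted.

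Totals were between 47520759 and 73063697 counts per library. Wwp2, the gene targeted, was between 17.0 and 22.7 CPM (counts per 1e+06 counts after TMM scaling) in the 10 WWP2-/- libraries and between 49.99 and 59.9 CPM in the 10 WT libraries. All 10 fibroblast markers on a list (among them Pdgfrb, Vim and Acta2) averaged at least 1 CPM in each group. So did all 6 endothelial markers and between 8 and 10 of 10 macrophage markers, so this limit does not tell cell types apart. Acta2, which encodes smooth muscle actin and defines the myofibroblast, was at 38.9 CPM in WWP2-/- untreated replicate 3 and at 50.5 CPM in WWP2-/- TGFβ1 replicate 1, whereas the lowest WT library held 1016 CPM. Xist, the noncoding RNA that silences 1 X chromosome in female cells, was above 1 CPM in 11 libraries and below it in 9. WWP2-/- untreated replicate 1, counted as with Xist, was at 33.7 CPM, and the others with it were between 107.9 and 291.3 CPM. The libraries without Xist were 1 of 5 in each WT group, 3 of 5 WWP2-/- untreated and 4 of 5 WWP2-/- TGFβ1 libraries.

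The genes lie apart on GRCm38. Runx1 (ENSMUSG00000022952) occupies chromosome 16 from 92601466 to 92826149 on the minus strand, and Runx2 (ENSMUSG00000039153) chromosome 17 from 44495987 to 44814797, also on the minus strand. Runx3 (ENSMUSG00000070691) lies on chromosome 4 from 135120652 to 135177990 and Cbfb (ENSMUSG00000031885) on chromosome 8 from 105170674 to 105217989, both on the plus strand. Cbfb is 2.22 Mb from Wwp2 on the same chromosome. Exons of Runx1 share 106 bases with the antisense gene Gm26626, and those of Runx2 share 519 bases with the antisense gene Runx2os1. The strand setting of the counting is not given in the sources used here, so reads of these stretches cannot be assigned to 1 strand.

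The distal promoters of the 3 RUNX genes carry the binding sequence of the family itself. RUNX proteins recognize TGTGGT, whose reverse complement is ACCACA. In RefSeq promoter windows on GRCm38.p6, each 250 bases before to 50 bases after a transcription start, all 4 genes were matched with 6 windows. The 3 stretches below were the only ones of these windows with 2 copies of ACCACA 2 bases apart, and they are shown because Runx1, Runx2 and Runx3 share the arrangement. Each is written 5′ to 3′ on the strand of its gene, with the copies of ACCACA in capitals.
Runx1, chr16:92826025-92826054, minus strand: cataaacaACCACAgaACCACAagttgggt
Runx2, chr17:44814583-44814612, minus strand: cacaaacaACCACAgaACCACAagtgcggt
Runx3, chr4:135120503-135120532, plus strand: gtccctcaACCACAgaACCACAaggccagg
The first copy began at base 29 after the start in Runx1, at base 24 after the start in Runx2 and at base −134 in Runx3, and the bases between the copies were the same in all 3. Among 32851 windows of the table, 16.8% held at least 1 ACCACA on either strand and 7 (0.0213%) held 2 copies on 1 strand in this spacing. The downstream promoters of Runx1 and Runx3 and the promoter of Cbfb held no ACCACA on either strand within these bases.

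Runx1 was the dominant RUNX gene in the cultures, Runx2 came next and Runx3 was scarce. Per kilobase of exon, Runx1 averaged 6.28 CPM per kb over the 20 libraries (range 2.85 to 15.1), Runx2 2.90 CPM per kb (2.06 to 4.92) and Runx3 0.212 CPM per kb (0.00408 to 0.791). This order held in 20 of 20 libraries, with Runx1 between 1.32 and 3.07 times the level of Runx2 on this scale. Cbfb, at 23.6 CPM per kb (19.6 to 31.8), stood above Runx1 in every library. Its level was 2.71±0.780 times the sum of the 3 RUNX genes (SD, n=20), with a range from 1.32 in WWP2-/- TGFβ1 replicate 3 to 4.204 in WT TGFβ1 replicate 4. This ratio depended on the length, as it was 1.80±0.545 with the length of the longest transcript, where it was below 1 in WWP2-/- TGFβ1 replicate 3 (0.843), and 0.871±0.257 with no length, where Cbfb exceeded Runx1 in 12 of 20 libraries.

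As a share of RUNX transcripts counted per kb, Runx1 made up 63.8%±3.67 in WT untreated, 64.4%±4.37 in WT TGFβ1, 66.1%±4.24 in WWP2-/- untreated and 69.1%±4.48 in WWP2-/- TGFβ1 libraries (SD, n=5 each). Runx2 made up 33.0%±6.02, 34.8%±4.72, 31.9%±5.70 and 28.2%±4.95 in the same order. The share of Runx3 was at most 6.76%, in WT untreated replicate 4. The dominance of Runx1 did not rest on the length used, since its mean share over all libraries was 65.8% with the exon length, 74.3% with the length of the longest transcript and 72.9% with no length. These counts do not tell apart the products of the distal and proximal promoters.

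**Figure D1:**
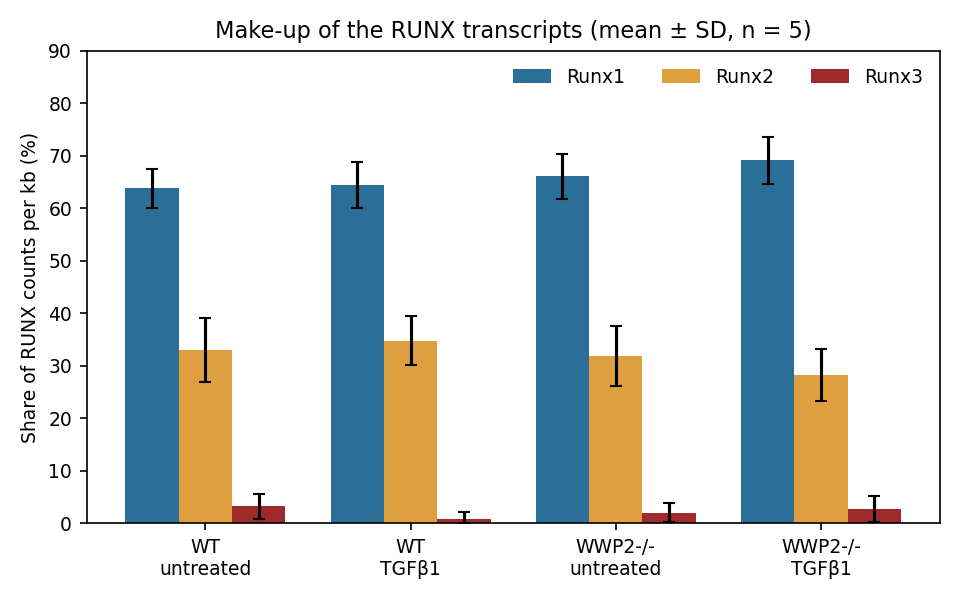
Share of Runx1, Runx2 and Runx3 in the RUNX counts per kb of exon (y axis, percent) in the 4 groups; bars are means and error bars 1 SD over 5 libraries, cut at 0. Runx1 is the tallest bar in every group, between 63.8% and 69.1%, and Runx3 the shortest, between 0.849% and 3.24%.

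After TGFβ1, the difference of Runx1 between the genotypes stood near the threshold without passing it. In WT untreated libraries it was at 54.5, 50.04, 55.4, 97.8 and 47.3 CPM in replicates 1 to 5. In WT TGFβ1 libraries it was at 70.4, 62.5, 79.9, 34.3 and 65.5 CPM. Replicate 4 stood high among the former and low among the latter, and the groups overlapped. In WWP2-/- untreated libraries Runx1 was at 82.3, 75.7, 67.4, 64.3 and 69.9 CPM, and in WWP2-/- TGFβ1 libraries at 69.4, 107.7, 181.7, 89.5 and 85.0 CPM. With TGFβ1, 4 of 5 WWP2-/- libraries lay above every WT library, and replicate 1, the culture low in Acta2, did not.

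With TGFβ1, Runx1 averaged 106.7±44.1 CPM across the WWP2-/- libraries against 62.5±17.1 CPM across the WT libraries (SD, n=5), which edgeR fitted as a log2 fold change of 0.77 (SE 0.256, adjusted P = 0.0757, edgeR). In this comparison 1238 of 20407 genes passed (6.07%), and 0 of the 4 RUNX and Cbfb genes did in edgeR, with 1 of them (Runx1) at an unadjusted P under 0.05 and 1 called by DESeq2. Over all genes, 5035 of 20407 had an unadjusted P under 0.05 and DESeq2 called 2672 (13.1%). The number of genes called by edgeR was between 453 (without WT TGFβ1 replicate 2) and 2730 (without WT TGFβ1 replicate 3) in fits that left out 1 library, and only the fit without WWP2-/- replicate 3 (1225) was within 1.5 times of 1238. The call for Runx1 turned with the test and with single libraries. Over 20 alternatives, adjusted P was between 0.0215 and 0.273. The Wald test of DESeq2 gave 0.78 (adjusted P = 0.0354), and edgeR gave 0.88 without WWP2-/- replicate 1 (adjusted P = 0.0380) and 0.86 without WT replicate 3 (adjusted P = 0.0441). Without WWP2-/- replicate 3, the highest library, the log2 fold change was 0.48.

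Pooled over the groups, Runx1 was higher in libraries without Xist, most of which were WWP2-/-. The 11 libraries with Xist held between 34.3 and 82.3 CPM of Runx1 (median 62.5), and the 9 without it between 64.3 and 181.7 CPM (median 85.0). The highest Runx1 library of either WT group was the 1 without Xist, and the lowest WWP2-/- TGFβ1 library (69.4 CPM) was the 1 with it. In WWP2-/- untreated libraries the order was the other way, with means of 74.8 CPM with Xist and 69.98 CPM without it. With Xist status in the edgeR fit, the log2 fold change with TGFβ1 was 0.50 (adjusted P = 0.273), and with the level of Xist itself (log2 CPM) in its place 0.47 (adjusted P = 0.266). Without the WT libraries that lacked Xist it was 0.87 (adjusted P = 0.0215). In that fit all WT TGFβ1 libraries held Xist and 4 of 5 WWP2-/- TGFβ1 libraries lacked it. It therefore cannot tell genotype and Xist status apart. Within libraries of like Xist status, Runx1 was higher in WWP2-/- than in WT by 0.30 on the log2 scale among those with Xist (4 WT against 1 WWP2-/-) and by 0.46 among those without it (1 against 4). The mean of these differences was 0.38 (exact permutation P = 0.24, adjusted P = 0.72 over 24 tests) and did not pass. The 1 WWP2-/- library with Xist was replicate 1, low in Acta2. The part of Xist status, or of the sex it marks, in the result was not tested beyond these fits.

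TGFβ1 did not move Runx1 past the threshold in either genotype. In WT cells its log2 fold change was 0.04 (SE 0.254, adjusted P = 0.993), and in WWP2-/- cells 0.57 (SE 0.255, unadjusted P = 0.0385, adjusted P = 1, edgeR). The difference between these responses was 0.53 (SE 0.360, adjusted P = 0.850, edgeR interaction). Without WWP2-/- TGFβ1 replicate 3, the value in WWP2-/- cells was 0.30 and the interaction 0.26, and without WT untreated replicate 4 the interaction was 0.32. Over all genes, edgeR called 0 (0%) for TGFβ1 in WT, 0 (0%) for TGFβ1 in WWP2-/- and 0 (0%) for the interaction. At an unadjusted P under 0.05 the counts were 1397, 713 and 1424 genes, and the Wald test of DESeq2 called 27 (0.132%), 44 (0.216%) and 10 (0.049%). Without WWP2-/- untreated replicate 3, edgeR called 63 for TGFβ1 in WWP2-/- cells. Between untreated genotypes, where 148 genes passed (0.725%, with 743 genes without WT replicate 4 and 1 gene when any of WT replicates 3 and 5 and WWP2-/- replicates 1, 4 and 5 was left out), the log2 fold change of Runx1 was 0.24 (SE 0.254, adjusted P = 0.683), with 0.15 without WT replicate 2, 0.16 without WT replicate 5 and 0.44 without WT replicate 4.

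Runx2 varied less than Runx1. It was at 20.6, 18.2, 26.8, 24.6 and 20.9 CPM in WT untreated replicates 1 to 5 and at 23.7, 23.9, 29.0, 19.1 and 24.5 CPM in WT TGFβ1 replicates. In WWP2-/- untreated libraries it was at 24.9, 19.4, 32.8, 23.4 and 27.0 CPM, and in WWP2-/- TGFβ1 libraries at 29.7, 32.2, 43.4, 25.9 and 22.01 CPM. All groups overlapped, and the highest library was again WWP2-/- TGFβ1 replicate 3. With TGFβ1 the genotypes differed by a log2 fold change of 0.35 (SE 0.174, adjusted P = 0.217, edgeR), and untreated by 0.20 (SE 0.173, adjusted P = 0.613). For TGFβ1 it was 0.11 (SE 0.173, adjusted P = 0.961) in WT and 0.27 (SE 0.173, adjusted P = 1) in WWP2-/- cells, with an interaction of 0.15 (SE 0.245, adjusted P = 0.985). Without WWP2-/- TGFβ1 replicate 3, the genotype difference with TGFβ1 was 0.18, the value for TGFβ1 in WWP2-/- 0.12 and the interaction 0.0094. Over all fits that left out 1 library, the 5 values of Runx2 stayed above 0.

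The log2 ratio of Runx1 to Runx2, per kb, followed Runx1. It averaged 0.97±0.364 in WT untreated, 0.89±0.283 in WT TGFβ1, 1.07±0.353 in WWP2-/- untreated and 1.31±0.322 in WWP2-/- TGFβ1 libraries (SD, n=5 each). With TGFβ1 the WWP2-/- mean was higher than the WT mean by 0.41 (exact two-sided permutation test, P = 0.0635, adjusted P = 0.254 over 4 comparisons), and 4 of 5 WWP2-/- libraries lay above all WT libraries. Within libraries of like Xist status that difference was 0.17 (exact P = 0.440). Without WWP2-/- TGFβ1 replicate 1 it was 0.55 (exact P = 0.00794, the smallest that 4 against 5 libraries allow) and without WT TGFβ1 replicate 1 it was 0.47 (exact P = 0.0476). The other 3 comparisons gave differences between −0.08 and 0.24, with exact P of 0.302 or more.

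**Figure D2:**
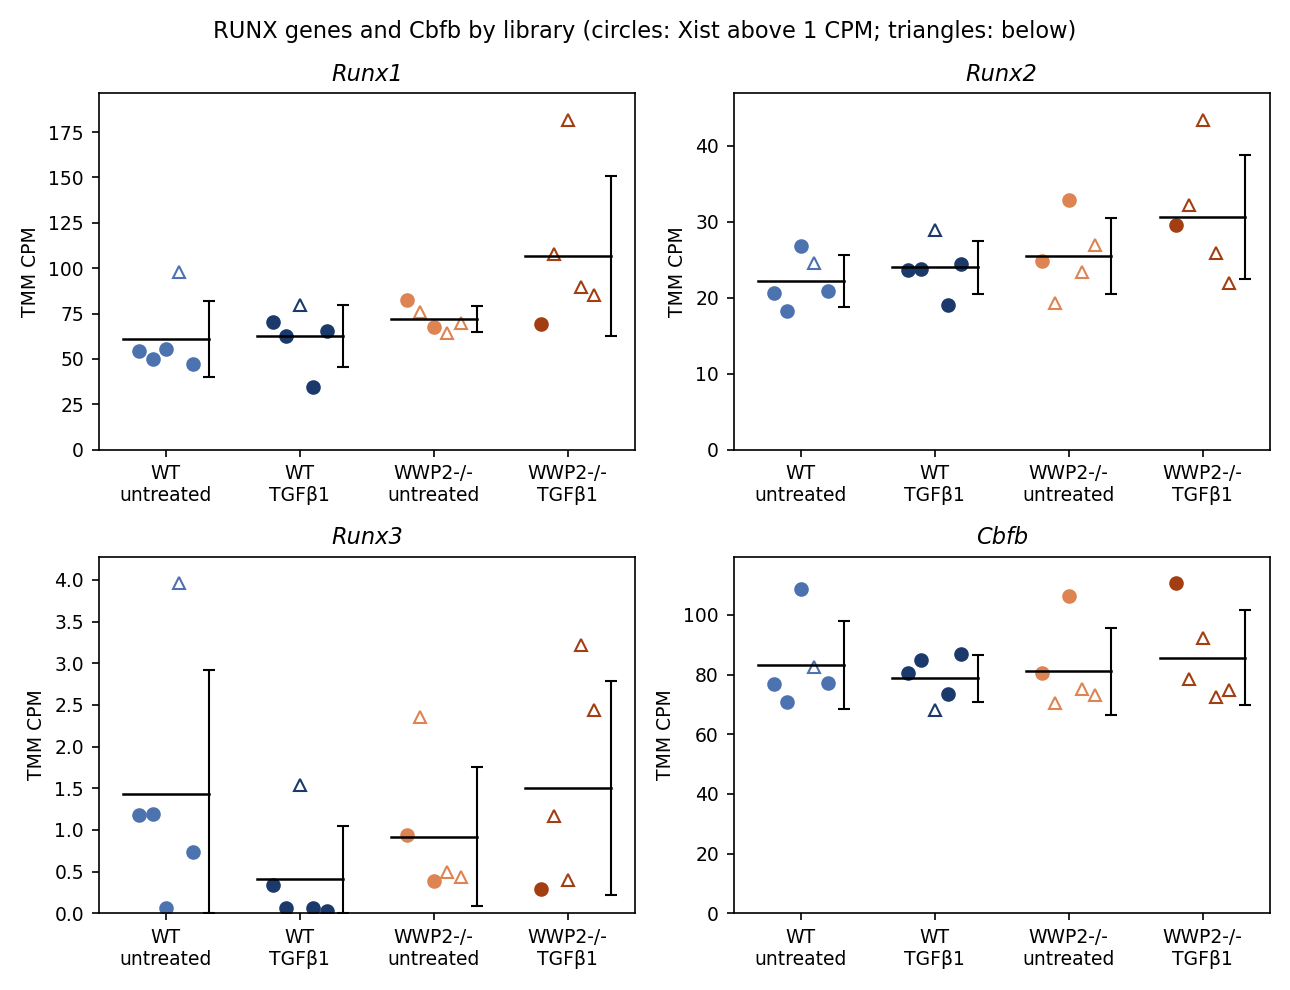
Levels of Runx1, Runx2, Runx3 and Cbfb (TMM CPM, y axis from 0) in each of the 20 libraries by group; circles are libraries with Xist above 1 CPM and triangles those below, horizontal lines are means and error bars 1 SD (n = 5), cut at 0. WWP2-/- TGFβ1 replicate 3 is the highest point for Runx1 (181.7 CPM) and Runx2 (43.4 CPM), and Cbfb is highest in circles, at 110.6 CPM in WWP2-/- TGFβ1 replicate 1.

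Runx3 was near the limit of detection in some libraries and followed leukocyte markers. It was at 1.18, 1.19, 0.0613, 3.96 and 0.739 CPM in WT untreated replicates 1 to 5 and at 0.343, 0.0601, 1.54, 0.0606 and 0.0204 CPM in WT TGFβ1 replicates. Of the 20 libraries, 4 held 3 counts of Runx3 or fewer, and they were all WT. In WWP2-/- untreated libraries it was at 0.935, 2.35, 0.383, 0.491 and 0.430 CPM, and in WWP2-/- TGFβ1 libraries at 0.286, 1.16, 0.404, 3.22 and 2.44 CPM. Across all libraries its highest level was 194 times its lowest, against 5.29 times for Runx1, 2.39 times for Runx2 and 1.62 times for Cbfb, although the lowest Runx3 value rests on 1 count.

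The sum of 10 macrophage markers was between 79.8 and 3891 CPM, and the 4 libraries highest in Runx3 were the 4 highest in that sum, in the same order. WT TGFβ1 replicate 3 departed from this order, at rank 5 in Runx3 (1.54 CPM) but rank 11 in the sum (440.8 CPM). Pearson's r of Runx3 with the sum was 0.911 over 20 libraries, and 0.893 after each group's mean was removed, on log2 values of the same libraries. With Ptprc, which encodes the leukocyte antigen CD45, r was 0.944. Ptprc was between 0.510 and 34.7 CPM. The 6 T cell markers together were at most 0.699 CPM, and none of them averaged 1 CPM in any group. In these bulk libraries, fewer leukocytes and less Runx3 RNA per cell cannot be told apart.

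**Figure D3:**
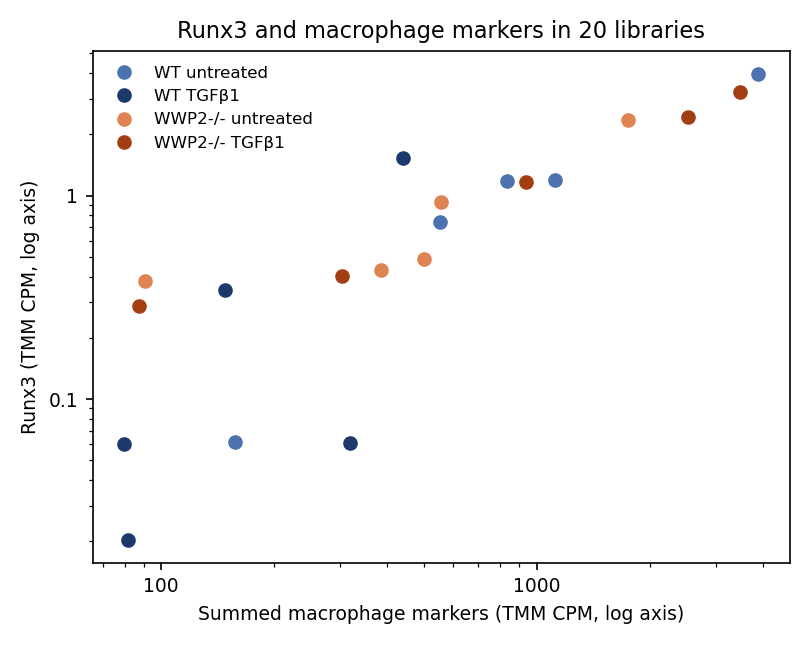
Runx3 (y axis, TMM CPM, log scale) against the summed level of 10 macrophage markers (x axis, TMM CPM, log scale), 1 point per library, coloured by group. The points rise together from WT TGFβ1 libraries near 80 CPM of markers to WT untreated replicate 4, at 3891 CPM of markers and 3.96 CPM of Runx3.

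Runx3 did not pass the threshold in any comparison. With TGFβ1 its log2 fold change between the genotypes was 1.89 (SE 1.034, adjusted P = 0.268, edgeR), and this value was decided by WT replicate 3, without which it was 3.59 (adjusted P = 0.0373, between 0.0235 and 0.492 over 19 alternatives). Untreated it was −0.63 (SE 0.990, adjusted P = 0.787), and 0.18 without WT replicate 4. For TGFβ1 it was −1.81 (SE 1.032, adjusted P = 0.818) in WT and 0.71 (SE 0.991, adjusted P = 1) in WWP2-/- cells, an interaction of 2.52 (SE 1.428, adjusted P = 0.784). Without WT TGFβ1 replicate 3 the value in WT was −3.52 and the interaction 4.23, and without WT untreated replicate 4 the value in WT was −0.98. In WWP2-/- cells it was 0.23 without TGFβ1 replicate 4 and 1.43 without untreated replicate 2. Within libraries of like Xist status the difference for TGFβ1 in WT was −0.56 on log2(CPM + 2) (exact permutation P = 0.0286, adjusted P = 0.32 over 24 tests). The macrophage markers had medians of the same signs, with a log2 fold change of 2.49 between the genotypes with TGFβ1, −0.76 untreated, −2.38 for TGFβ1 in WT and 0.81 in WWP2-/- cells. In edgeR 0 of the 10 markers passed in each (9, 0, 8 and 0 at an unadjusted P under 0.05 in that order), and the Wald test of DESeq2 called 8, 0, 0 and 0. Over all 20407 genes in that order, edgeR called 6.07%, 0.725%, 0% and 0%, and DESeq2 13.1%, 3.66%, 0.132% and 0.216%. An unadjusted P under 0.05 in edgeR was found for 5035, 3044, 1397 and 713 of all genes. The part of leukocytes in the Runx3 values was not tested.

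Cbfb was the steadiest of the 4 genes, with a coefficient of variation of 15.6% over the libraries against 23.0% for Runx2 and 40.4% for Runx1. It was at 76.9, 70.7, 108.7, 82.7 and 77.3 CPM in WT untreated replicates 1 to 5 and at 80.4, 84.9, 68.2, 73.5 and 87.0 CPM in WT TGFβ1 replicates. In WWP2-/- libraries it was at 80.6, 70.5, 106.5, 75.1 and 73.1 CPM untreated and at 110.6, 78.5, 92.2, 72.3 and 74.7 CPM with TGFβ1. The 2 WWP2-/- libraries low in Acta2 were the highest of their groups. Its log2 fold changes were −0.08, 0.08, −0.04 and 0.12 (SE 0.143 each) for TGFβ1 in WT, TGFβ1 in WWP2-/-, the genotypes untreated and the genotypes with TGFβ1, and the lowest adjusted P was 0.652 (edgeR). With Xist as a covariate, the difference between the genotypes with TGFβ1 was 0.31 (adjusted P = 0.147, edgeR). Within libraries of like Xist status Cbfb was higher in WWP2-/- by 0.43 among those with Xist and by 0.21 among those without it (exact permutation P = 0.04, the smallest that 25 arrangements allow, and adjusted P = 0.32 over 24 such tests). Those with Xist were 4 WT libraries against 1 WWP2-/- library, and those without it 1 against 4. The 1 WWP2-/- library with Xist was replicate 1, low in Acta2. Without that library the edgeR log2 fold change of Cbfb between the genotypes with TGFβ1 was −0.0058. The interaction for Cbfb was 0.16 (SE 0.203, adjusted P = 0.965).

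**Figure D4:**
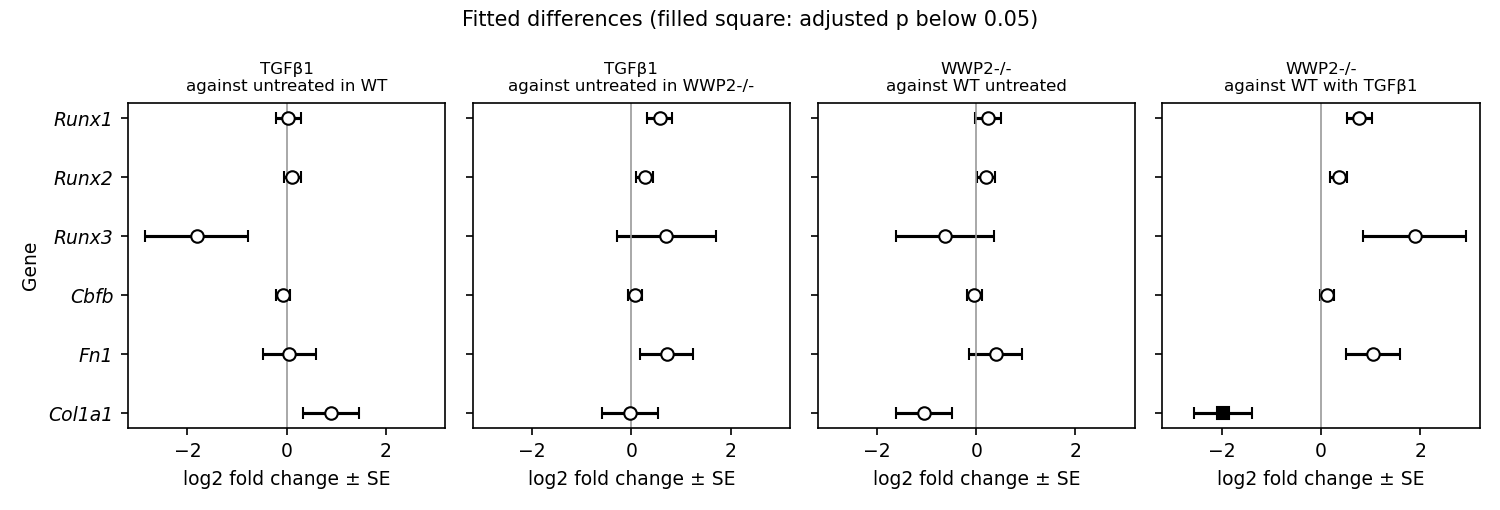
Log2 fold changes (x axis) with 1 SE from the edgeR fit for the 4 genes, Fn1 and Col1a1 (y axis) in 4 comparisons; a filled square marks an adjusted P below 0.05. Only Col1a1 with TGFβ1 carries a filled square, at −1.98, while Runx1 is at 0.77 in the same panel.

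The matrix genes took different courses. Fn1 encodes fibronectin and lies on chromosome 1. It was between 6279 and 11806 CPM in WT untreated, 5405 and 16420 CPM in WT TGFβ1, 3367 and 17455 CPM in WWP2-/- untreated and 3781 and 49603 CPM in WWP2-/- TGFβ1 libraries. Its log2 fold change between the genotypes with TGFβ1 was 1.05 (SE 0.538, adjusted P = 0.235, edgeR). It was 0.28 without WWP2-/- replicate 3 and 0.14 with Xist as a covariate, and it passed at 1.32 (adjusted P = 0.0485, between 0.0485 and 0.908 over 20 alternatives) without the libraries low in Acta2. Col1a1, on chromosome 11, encodes the α1 chain of collagen I and is a known Runx2 target in bone. With TGFβ1 it averaged 2065±1825 CPM across the WWP2-/- libraries against 8161±3057 CPM across the WT libraries (SD, n=5), and the log2 fold change was −1.98 (SE 0.580, adjusted P = 0.0492, edgeR), which lost the threshold in 8 of 10 fits that left out 1 library and with DESeq2 size factors (adjusted P = 0.0540). With Xist as a covariate it was −1.92 (adjusted P = 0.17, edgeR). In this comparison the means of Runx1 and Runx2 were higher in WWP2-/- libraries, but neither difference passed in edgeR. A link of either gene to the level of Col1a1 between the genotypes was not tested.

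Across libraries, Runx1 followed Fn1 and none of the other 7 pairings passed. These correlations used log2(CPM + 2) with each group's mean removed, so that they describe differences between libraries of 1 group, and P came from 100000 shuffles within groups in a two-sided permutation test, adjusted over the 8 pairings. Runx1 and Fn1 had Pearson's r of 0.713 (permutation P = 0.000680, adjusted P = 0.00544) and Spearman's rho of 0.743 (adjusted P = 0.00320, n=20). Without the 2 libraries farthest from the median of Runx1, WT TGFβ1 replicate 4 and WWP2-/- TGFβ1 replicate 3, r was 0.550 (permutation P = 0.00384). Among the 10 treated libraries r was 0.877 (permutation P = 0.00206) and among the 10 untreated ones 0.331 (permutation P = 0.157), and the difference between these was not tested. With group and Xist status both removed, r was 0.719 (permutation P = 0.00496). Libraries alone in their group and Xist status carry no weight in that value. They were WT untreated replicate 4, WT TGFβ1 replicate 3 and WWP2-/- TGFβ1 replicate 1, the last of them low in Acta2. The 2 libraries low in Acta2 held the least Fn1 of all, 3367 and 3781 CPM, with 67.4 and 69.4 CPM of Runx1.

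Runx2 and Fn1 had r = 0.385 (permutation P = 0.203, adjusted P = 0.406) and rho of 0.516 (adjusted P = 0.111). This value rested on single libraries, since r was 0.034 without the 2 libraries farthest from the median of Runx2 and 0.718 (permutation P = 0.0105) without WWP2-/- untreated replicate 3. Cbfb and Fn1 had r = −0.353 (permutation P = 0.20, adjusted P = 0.406) and rho of −0.102, with r = −0.557 (permutation P = 0.0390) without WWP2-/- TGFβ1 replicate 3. Runx3 and Fn1 had r = 0.135 (permutation P = 0.637, adjusted P = 0.889) and rho of 0.093.

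With Col1a1, Runx3 had the largest value, r = −0.597 (permutation P = 0.0193, adjusted P = 0.0772) and rho of −0.513 (adjusted P = 0.111), and r was −0.440 (permutation P = 0.138) without WWP2-/- TGFβ1 replicate 4 and WT untreated replicate 4. The sum of macrophage markers was high in the same libraries, and its part was not tested. Runx1 had r = −0.063 (permutation P = 0.774, adjusted P = 0.889) and rho of −0.035, Runx2 r = 0.037 (permutation P = 0.889) and rho of 0.015, and Cbfb r = −0.054 (permutation P = 0.837) and rho of 0.129. For Runx1 the sign differed between untreated libraries (r = −0.724) and treated libraries (r = 0.460), neither of which passed alone (permutation P = 0.0821 and 0.194).

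**Figure D5:**
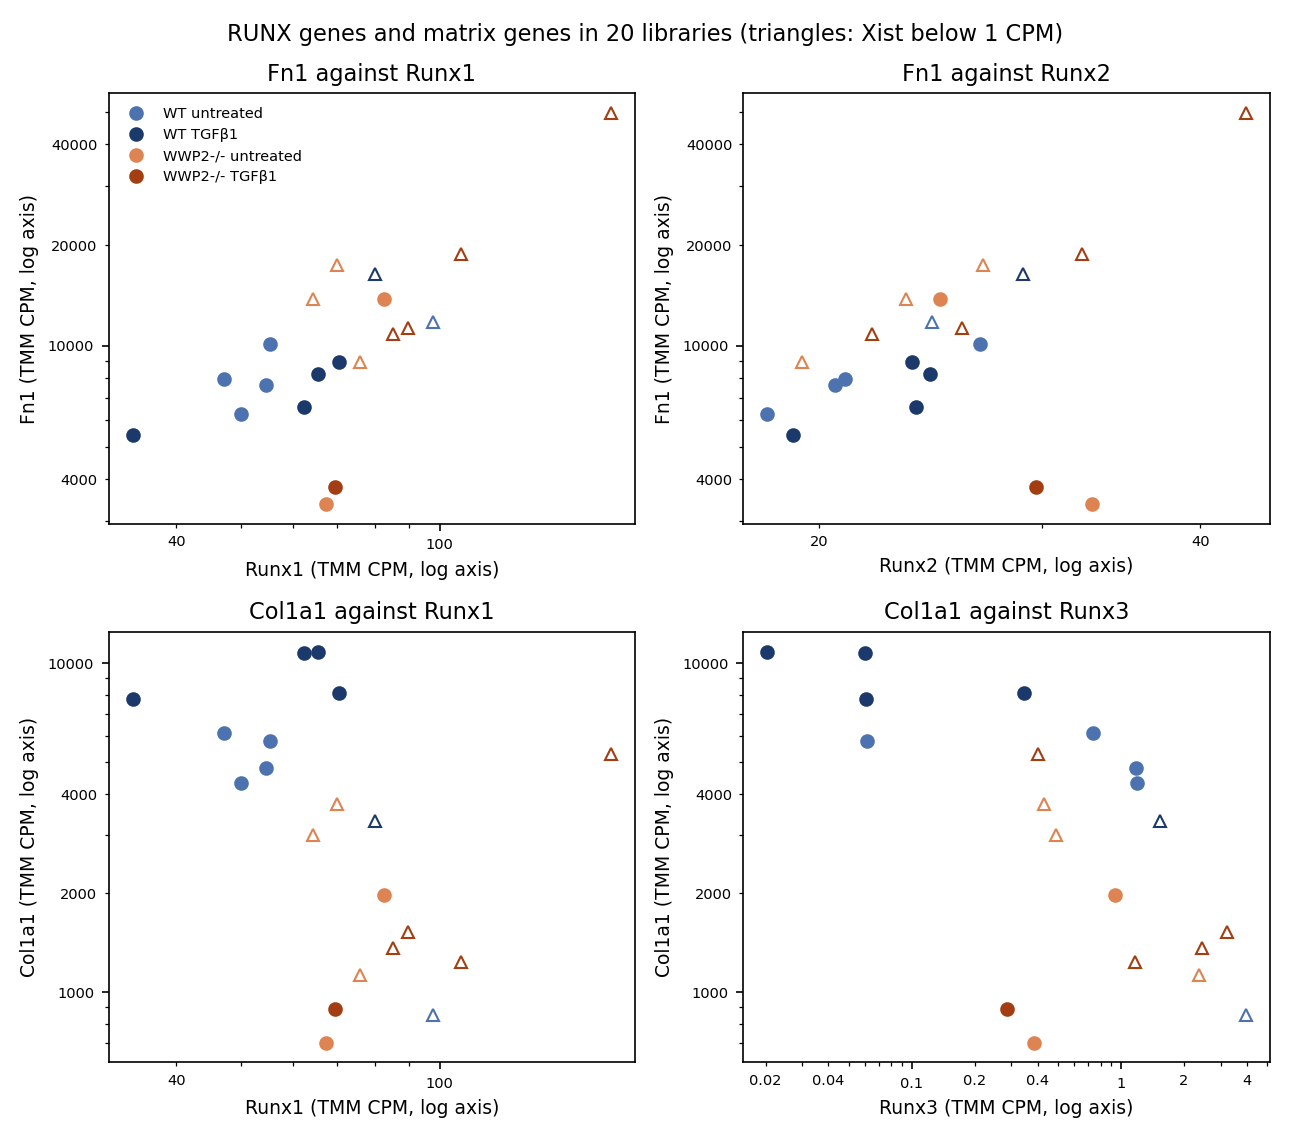
Fn1 against Runx1 and Runx2 and Col1a1 against Runx1 and Runx3 (TMM CPM, log axes) in 20 libraries, coloured by group, with triangles for libraries with Xist below 1 CPM. In the first panel most points rise together up to WWP2-/- TGFβ1 replicate 3 (181.7 CPM of Runx1, 49603 CPM of Fn1), and the 2 libraries at the bottom, with 3367 and 3781 CPM of Fn1, are those low in Acta2.

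Among the genes themselves, Runx1 and Runx2 varied together (r = 0.736 over 20 libraries and 0.612 with group means removed), as did Runx2 and Cbfb (0.531 and 0.572), whereas Runx3 and Cbfb varied oppositely (−0.476 and −0.628). These are descriptions over libraries that share their scaling. Among 13518 genes with a mean of at least 1 CPM, those most like Runx1 over the 20 libraries were Ppp1r13l (r = 0.934), Mtmr7 (0.932) and Stk38l (0.919). The genes most like Runx2 were Atg4c (0.919), Nkain1 (0.894) and Zmym2 (0.886), and those most like Cbfb were Bend6 (0.895), Npepps (0.891) and Dennd2c (0.887). Runx3 was followed most closely by Parvg (0.990), Psd4 (0.981) and St8sia4 (0.981).

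Of 19 corepressors and coactivators of the RUNX proteins, all measured at 1 CPM or more, 1 passed between the genotypes with TGFβ1, a share near the 6.07% of all genes tested, and DESeq2 called 3 (13.1% of all genes). It was Tle2, a Groucho family corepressor that binds the C-terminal VWRPY motif of RUNX proteins, which was at 45.2 CPM in WT and 19.6 CPM in WWP2-/- libraries (log2 fold change −1.20, adjusted P = 0.0430, edgeR). Tle1 (0.13), Tle3 (−0.12) and Tle4 (−0.38) did not pass. The coactivators Ep300 (0.06) and Crebbp (0.07) had values near 0, and the median of the list was −0.09 against 0.05 for all genes. Tle2 lost the threshold in 7 of 10 fits that left out 1 library.

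Of 17 tested Runx2 partners and inhibitors, 1 passed with TGFβ1, a share near the 6.07% of all genes, and DESeq2 called 4 (13.1% of all genes). Zfp521, a zinc finger protein that represses Runx2 activity, was at 57.7 CPM in WT and 20.5 CPM in WWP2-/- libraries (log2 fold change −1.49, adjusted P = 0.0251, edgeR), and it lost the threshold in 6 of 10 fits without 1 library. Twist1, whose protein blocks the Runx2 DNA-binding domain, was at 62.7 and 10.4 CPM (−2.59, adjusted P = 0.225). The median of the list was −0.43. Of 9 ubiquitin ligases known to act on RUNX proteins, Wwp2, the gene targeted, alone passed in either genotype comparison. The shares of all genes were 6.07% with TGFβ1 and 0.725% untreated. DESeq2 also called Wwp2 alone in each, against 13.1% and 3.66% of all genes. With TGFβ1, Smurf1 (0.25), Smurf2 (0.02), Wwp1 (−0.11), Itch (−0.02) and Stub1 (−0.17) did not pass.

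Among genes that Runx2 drives in bone, 18 of 21 could be tested and 4 passed between the genotypes with TGFβ1, 1 higher and 3 lower, against 6.07% of all genes. DESeq2 called 6 of the 18 (13.1% of all genes). Mmp9, a gelatinase, was at 0.490 CPM in WT and 17.8 CPM in WWP2-/- libraries (log2 fold change 5.18, adjusted P = 0.0158, edgeR), and it passed in all 20 alternative fits run. The macrophage markers had a median log2 fold change of 2.49 in this comparison. The part of macrophages, or of Runx2, in the Mmp9 value was not tested. Col1a2 was at 8000 and 1296 CPM (−2.63, adjusted P = 0.0142), but it did not pass with Xist as a covariate (−2.07, adjusted P = 0.0785, edgeR), and Col1a1 is given above. Fgfr2, a receptor for fibroblast growth factors named after its values were seen, was at 31.6 and 18.2 CPM (−0.80, adjusted P = 0.0329), and it lost the threshold in 7 of 10 fits without 1 library. Alpl, the tissue-nonspecific alkaline phosphatase, averaged 1.84 CPM over all libraries and Bglap, which encodes osteocalcin, 0.0792 CPM. Spp1, which encodes osteopontin, averaged 4875 CPM (2.03, adjusted P = 0.110 in edgeR), and DESeq2 called it. The 8 bone and cartilage markers together were at most 22.7 CPM, in WT TGFβ1 replicate 3.

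Of 13 targets of Runx1 and Runx3 in blood cells, 11 could be tested and 1 passed with TGFβ1, against 6.07% of all genes, while DESeq2 called 5 (13.1% of all genes). Itgal, which encodes the leukocyte integrin CD11a, was at 0.273 CPM in WT and 2.33 CPM in WWP2-/- libraries (log2 fold change 3.08, adjusted P = 0.0466, edgeR), and it lost the threshold in 8 of 10 fits without 1 library. Spi1, the myeloid factor PU.1, was at 2.08 and 12.0 CPM (2.53, adjusted P = 0.123), and Csf1r, the receptor of macrophage colony-stimulating factor, at 11.1 and 33.4 CPM (1.59, adjusted P = 0.103). The median of the list was 1.44 with TGFβ1 and that of the macrophage markers 2.49, against 0.05 for all genes. The part of macrophages in these values was not tested.

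Over the 73 genes of these 5 lists that could be tested, 8 passed between the genotypes with TGFβ1, the targeted gene Wwp2 among them, and 1, Wwp2, untreated, against 6.07% and 0.725% of all genes. The Wald test of DESeq2 called 18 and 6, against 13.1% and 3.66% of all genes. For TGFβ1 in WT, TGFβ1 in WWP2-/- and the interaction, edgeR called 0 of them, 6, 4 and 9 had an unadjusted P under 0.05, and DESeq2 called 0 in each. Among the other cell type markers, edgeR found 2 of 6 endothelial genes (Tek, −2.87, adjusted P = 0.0135, and Kdr, −1.76, adjusted P = 0.0351) and 2 of 10 fibroblast genes (Col1a2, and Postn, −2.44, adjusted P = 0.0407) lower in WWP2-/- libraries with TGFβ1, against 6.07% of all genes called. The other 4 endothelial genes had log2 fold changes above 0 and the median of that list was 0.53, while 8 of the 10 fibroblast genes were below 0 (median −1.69). None of the 5 tubular, 3 bone and cartilage and 1 T cell markers that could be tested passed in that comparison in edgeR, and DESeq2 called 1 of them, the tubular gene Slc12a1. Kdr lost the threshold in 6 and Postn in 8 of 10 fits that left out 1 library. With Xist as a covariate, Col1a1, Col1a2, Zfp521, Itgal, Tek, Kdr and Postn no longer passed, whereas Mmp9, Tle2, Fgfr2 and Wwp2 did. With Xist status as a factor Fgfr2 did not pass either (adjusted P = 0.0600, edgeR). The sums of the 6 endothelial markers were between 28.8 and 168.6 CPM in WT TGFβ1 and between 7.61 and 153.7 CPM in WWP2-/- TGFβ1 libraries, and those of the 8 tubular markers between 19.5 and 76.5 CPM and between 8.17 and 289.9 CPM.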

How the data were processed

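Poly-A RNA of primary renal myofibroblasts was sequenced in 20 libraries, 5 in each of 4 groups by the labels. The deposited values are raw counts per gene, which the authors made from paired-end reads with STAR (GRCm38) and featureCounts over exons. Versions of these tools are not given in the sources used here. GENCODE M21 supplied names for 51633 of 51826 identifiers and exon lengths, and RefSeq the promoter sequences.

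Genes needed 5 counts or more in 5 or more libraries. All libraries were fitted together in edgeR 4.0.16 (R 4.3.3) with TMM scaling, 4 groups and no block, and contrasts were tested with glmQLFTest at a Benjamini–Hochberg adjusted P of 0.05. The SE is the size of the log2 fold change divided by the square root of its F. Ratios were compared by exact permutation over 252 arrangements, whose smallest P is 0.00794, and correlations by 100000 shuffles within groups with a pseudocount of 2 CPM. A limit of 3 counts is at most 0.0631 CPM and covers counting error only.

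The members, the gene lists (RUNX cofactors, Runx2 partners, ligases, targets and cell type markers) and the tests were chosen with earlier results of these data known. By rule, the text names the 4 genes, Fn1, Col1a1, Wwp2, Xist, at most 3 called genes per list and comparison (largest change, mean of at least 1 CPM) and the 3 genes most like each of the 4. Any other gene was named after its values were seen. The alternatives were DESeq2 1.42.0 (size factors or Wald test), other filters, a replicate block, a covariate for Xist, only the groups compared and each library left out. Added after seeing the data were Xist status as a factor, fits without the libraries low in Acta2 or the WT libraries lacking Xist, the longest transcript length, correlations and levels with each library left out, and the same alternatives for named genes other than the 4. The fits were tested on simulated data. Protein sequences and the study's other measurements were not analysed here.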

Additional observations from a re-analysis of the deposited data

Results flagged for a closer look

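Among 24 sets of 5 libraries (the 4 genes, Fn1 and Col1a1 in each group, as log2(CPM + 2)), 4 held a library whose gap to its nearest neighbour, divided by the whole range, was above Dixon's 95% limit of 0.71, and chance gives about 1 in 20. All 4 were in the 2 WT libraries without Xist. In WT untreated replicate 4, Runx1 was at 97.8 CPM against 55.4 CPM in the next library (ratio 0.784), and Col1a1 at 854.5 CPM against 4339 CPM (0.823). In WT TGFβ1 replicate 3, Runx3 was at 1.54 CPM against 0.343 CPM (0.736), and Col1a1 at 3311 CPM against 7792 CPM (0.721).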

How the results depend on the processing

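The calls of the 4 genes rested on few libraries, and the cause was not tested for any change below. Runx1 between the genotypes with TGFβ1 passed with the Wald test of DESeq2 (0.781), without the 2 WWP2-/- libraries low in Acta2 (0.893, adjusted P = 0.0294, edgeR) and without the 2 WT libraries lacking Xist (0.875), and its log2 fold change was between 0.479 and 0.879 with 1 library left out. In the same comparison Runx3 was at 3.61 (adjusted P = 0.0235, edgeR) without the 2 WT libraries lacking Xist and between 1.39 and 3.59 with 1 library left out. Untreated, Runx3 turned to 0.214 without those WT libraries and was between −1.37 and 0.179 with 1 library left out, and for TGFβ1 in WWP2-/- cells it turned to −0.0669 with Xist status as a factor. Cbfb between untreated genotypes turned to 0.0866 with Xist as a covariate and to 0.0618 with Xist status as a factor. With 1 library left out, its log2 fold change was between −0.138 and 0.0320 for TGFβ1 in WT, −0.0202 and 0.202 for TGFβ1 in WWP2-/-, −0.177 and 0.0478 untreated and −0.00580 and 0.164 between the genotypes with TGFβ1, and that of Runx1 for TGFβ1 in WT between −0.0642 and 0.259.

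The log2 ratio of Runx1 to Runx2 turned to 0.0148 for TGFβ1 in WT with medians in place of means, and to −0.142 between untreated genotypes within libraries of like Xist status. With 1 library left out, it was between −0.169 and 0.0674 for TGFβ1 in WT, −0.0170 and 0.241 between untreated genotypes and 0.292 and 0.547 between the genotypes with TGFβ1.

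The correlation of Runx1 with Fn1 did not pass among untreated libraries (0.331). That of Runx3 with Col1a1 lost its unadjusted call without the 2 libraries farthest from the median (−0.440), among untreated (−0.705) or treated libraries (−0.456) and with Xist status removed (−0.620). Among untreated libraries, Runx2 turned to −0.167 with Fn1 and −0.250 with Col1a1. Among treated libraries, Runx1 turned to 0.460 and Cbfb to 0.251 with Col1a1. With Xist status removed, Runx1 turned to 0.530 and Cbfb to 0.230 with Col1a1, and Runx3 to −0.567 and Cbfb to 0.233 with Fn1. Runx2 with Col1a1 turned to −0.304 without the 2 farthest libraries and to −0.160 with the counts of collagen and Fn1 taken out of the total. With 1 library left out, the range with Fn1 was 0.0875 to 0.718 for Runx2, −0.0658 to 0.391 for Runx3 and −0.557 to −0.107 for Cbfb, and with Col1a1 it was −0.474 to 0.327 for Runx1, −0.313 to 0.217 for Runx2, −0.744 to −0.405 for Runx3 and −0.176 to 0.177 for Cbfb.

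Libraries with the same replicate number did not deviate together throughout, as their correlations were between −0.587 and 0.533. Over 0.1 were 4 of 5 pairs of untreated WWP2-/- and WT libraries, with the other at −0.014, and at most 3 of 5 in the other pairs of groups. With the replicate block, no call of the 4 genes or of the ratio changed, while Col1a1, Tle2, Itgal, Fgfr2, Kdr and Postn lost the threshold between the genotypes with TGFβ1 (adjusted P between 0.0572 and 0.106, edgeR), Runx1 with TGFβ1 was at 0.736 (adjusted P = 0.137, edgeR), and calls over all genes went from 148 to 1 untreated and from 1238 to 670 with TGFβ1. Over all genes with TGFβ1, edgeR called 790 with no filter, 715 with Xist as a covariate, 331 with Xist status as a factor, 569 with only the groups compared, 3480 without the libraries low in Acta2 and 3322 without the WT libraries lacking Xist, and DESeq2 called 2672. Untreated, the counts in that order were 113, 92, 21, 1, 271 and 1136, and 747. A paired test of the ratio over 5 pairs cannot go below 0.0625. With 10 counts required in every library, Runx3 was not tested.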
